A study of Mus musculus with 6 samples.

Results

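Mitochondrial ribosomal proteins are the protein part of the ribosome inside mitochondria. The genes described here are the protein-coding genes of the deposited table whose symbols start with Mrpl (large subunit) or Mrps (small subunit) followed by a digit. There were 75 such genes among the 12366 genes listed, 47 Mrpl and 28 Mrps. Their RNA was compared in fasted liver between wild-type mice (WT) and mice lacking Acss2, an enzyme of cytosol and nucleus that turns acetate into acetyl-CoA (Acss2-KO, genotype Acss2-/-). All animals were male C57BL/6 mice, 22 weeks old, on chow and then fasted for 48 h. Each genotype had 3 libraries, made from total liver RNA with an Illumina TruSeq kit. The labels do not say which animal each library came from. The p-values therefore reflect variation among these libraries, some of which may be technical.

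The mitochondrial ribosome translates the few messenger RNAs of the mitochondrial genome, which encode membrane subunits of the respiratory chain and ATP synthase. Its RNAs come from mitochondrial DNA, whereas its proteins are encoded in the nucleus, made in the cytosol and imported. Many of these proteins belong to families that bacterial ribosomes also have, and others are found in mitochondrial ribosomes but have no bacterial counterpart. In liver the organelle houses fatty acid oxidation and ketone body synthesis, both of which run high in fasting.

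Values are read counts scaled to a library total of 1000000 reads (CPM), and estimated depth ran from 21.8 to 30.8 M reads per library, so that 5 CPM stood for 109 to 154 reads. Acss2 was at 74.0, 81.0 and 73.5 CPM in WT replicates 1 to 3 and at 1.37, 3.56 and 2.35 CPM in Acss2-KO replicates 1 to 3, in keeping with the labels. All 7 hepatocyte markers were found, with summed levels of 89494 to 110081 CPM in WT and 100497 to 112057 CPM in Acss2-KO libraries, most of it albumin (Alb). Of these markers 2 were lower in Acss2-KO liver, Ttr (log2 fold change -1.80, limma adjusted p = 0.0015) and Serpina1c (-0.998, limma adjusted p = 0.0071), 1 was higher, Tat (1.66, limma adjusted p = 0.022), and 4 passed neither threshold. Markers of blood and immune cells differed between the genotypes. Of 7 Kupffer cell and macrophage markers tested 3 were lower in Acss2-KO liver (sums of 167 to 498 CPM in WT and 64.5 to 133 CPM in Acss2-KO), as were 3 of 3 leukocyte markers (89.0 to 282 and 26.5 to 44.3 CPM) and 5 of 5 red cell markers (162 to 280 and 41.2 to 67.0 CPM). WT replicate 2 had the highest sum in each of these groups, with 498 CPM for macrophage markers against 167 and 228 CPM in WT replicates 1 and 3. Stellate cell markers had 2 of 5 lower, sinusoidal endothelium 1 lower and 1 higher of 6, and of the bile duct markers Spp1 was lower and Sox9 higher. All these marker counts stand beside 23.1% lower and 13.4% higher of all genes tested. The leukocyte markers Cd3e and Cd79a and the bile duct markers Epcam, Krt7 and Krt19 were not among the genes listed. The part of these cells in the values that follow was not tested, and in whole liver fewer cells of a type cannot be told apart from less RNA per cell.

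Of the transcripts for mitochondrial ribosomal proteins, more fell than rose in Acss2-KO liver, and most passed neither threshold. Among the 74 genes that averaged 5 CPM or more, 26 fell and 2 rose at an adjusted p under 0.05 in limma, a linear model fitted to the whole table on log2(CPM + 1). That is 35.1% lower and 2.70% higher, against 23.1% lower and 13.4% higher (36.5% in either direction) of all 9355 genes tested. The large subunit gave 16 lower genes, 0 higher and 31 past neither threshold, with a median log2 fold change of -0.37. The small subunit gave 10 lower, 2 higher and 15 past neither, with a median of -0.43. The median over all genes tested was -0.12. In the large subunit the 31 genes that missed the threshold included 5 with a positive fold change, the highest being 0.29 for Mrpl13.

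The levels of all 28 called genes did not overlap between the genotypes. These genes were picked by their p in the same libraries, so this is no separate support. Every Acss2-KO library was below every WT library for 27 of 47 large-subunit genes and 15 of 27 small-subunit genes, where 32.8% of all genes tested had that order. Every Acss2-KO library was above every WT library for 0 large-subunit and 4 small-subunit genes, where the share of all genes was 20.1%. The fold change was negative for 62 of the 74 genes (83.8%) and for 57.3% of all genes tested.

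The count of lower genes depended on the scaling of the libraries, while the direction did so less. With median-of-ratios, upper-quartile, trimmed-mean or quantile scaling, which each moved the median of all genes to between -0.04 and 0.02, 9 large-subunit and 6 small-subunit genes were lower and 3 small-subunit genes were higher. That is 20.3% lower, near the 17.5% to 19.4% of all genes under the same scalings. Negative fold changes then made up 75.7% to 78.4% of these genes and 48.6% to 52.2% of all genes. Among single libraries, leaving out WT replicate 1 or 2 gave 9 lower large-subunit genes, and leaving out Acss2-KO replicate 1 or 3 gave 8. The small subunit had 5, 6 and 5 lower genes without WT replicates 1, 2 and 3, and 4 and 3 without Acss2-KO replicates 1 and 3. Over both subunits that is 18.9% and 20.3% lower without WT replicates 1 and 2, against 14.5% and 15.1% of all genes under the same settings. Without Acss2-KO replicate 1 it is 16.2% against 16.7% of all genes, and without Acss2-KO replicate 3 it is 14.9% against 12.7%.

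**Figure D1:**
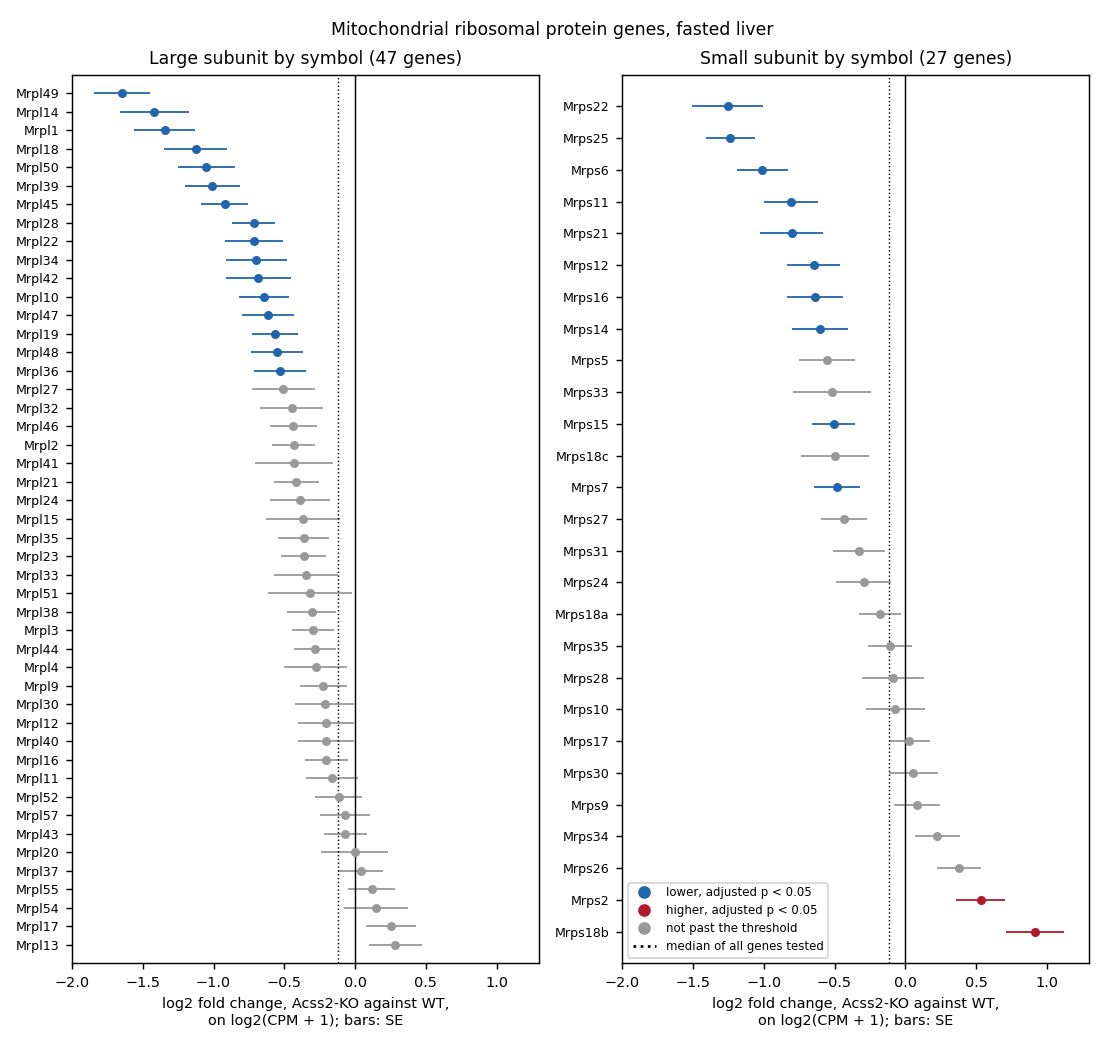
Log2 fold change (Acss2-KO against WT, on log2(CPM + 1)) of the 47 Mrpl and 27 Mrps genes tested, ordered by size, with bars for the SE of the limma fit, and a dotted line at the median of all genes tested (-0.12). Blue points (16 Mrpl, 10 Mrps) were lower and red points (2 Mrps) higher at an adjusted p under 0.05, and most grey points lie left of 0.

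Mrpl49, a large-subunit protein specific to mitochondria, showed the largest decrease. Its gene (ENSMUSG00000007338, chromosome 19, 6053630 to 6057751) had 27.7, 29.7 and 27.5 CPM in WT and 7.01, 11.2 and 7.26 CPM in Acss2-KO libraries. The WT libraries lay close together and the highest Acss2-KO value was well below the lowest WT value. The log2 fold change was -1.65 (SE 0.20, limma adjusted p = 0.00091), with means of 28.3 ± 1.21 and 8.5 ± 2.37 CPM (SD, n = 3 each). In the deposited positions the gene shares 83 bp with Syvn1, and whether reads were counted by strand was not given in the sources used here.

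Mrpl14 and Mrpl1 belong to families shared with bacteria. Mrpl14, a protein of the face that meets the small subunit, had 40.8, 35.5 and 53.4 CPM in WT and 11.2, 20.7 and 15.5 CPM in Acss2-KO libraries. Its values spread in both genotypes without touching, and the log2 fold change was -1.42 (SE 0.24, limma adjusted p = 0.0037). Mrpl1, which forms the mobile stalk beside the tRNA exit site, was at 21.6, 21.9 and 29.2 CPM in WT and at 7.06, 11.7 and 8.28 CPM in Acss2-KO libraries, a log2 fold change of -1.34 (SE 0.22, limma adjusted p = 0.0028). For both genes WT replicate 3 was the highest library and Acss2-KO replicate 1 the lowest.

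Mrpl45 tethers the ribosome to the inner mitochondrial membrane at the mouth of the exit tunnel. It was at 32, 32.4 and 29.0 CPM in WT libraries and at 13.5, 17.5 and 17.3 CPM in Acss2-KO libraries. Here WT replicate 3 was the lowest WT library, unlike in most of these genes, and the genotypes stood far apart. The log2 fold change was -0.92 (SE 0.17, limma adjusted p = 0.0043). Mrpl39, a neighbour at the exit tunnel with a fold related to threonyl-tRNA synthetase, changed by -1.01 (SE 0.20, limma adjusted p = 0.0057). Mrpl44, which has a ribonuclease III fold, was lower in every Acss2-KO library than in every WT library (19.2, 19.8 and 20.7 against 15.8, 17.5 and 15.2 CPM), but its log2 fold change of -0.28 did not pass (limma adjusted p = 0.17).

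The promoters of Mrpl49 and Mrpl45 are shown as 2 of the 10 genes that kept their call under every setting of the limma test that tested them. Mrpl49 was not tested at the minimum of 20 CPM. Both stretches end just before the RefSeq transcription start (build GRCm38.p6) and are read 5′ to 3′ on the gene's strand. The 191 bases of Mrpl49, chr19:6057756-6057946 on the minus strand, reach to the start of Fau, the neighbour transcribed away from it. The 250 bases of Mrpl45 are chr11:97315466-97315715 on the plus strand. Capitals mark TGCGCA, the repeated unit in the motif of nuclear respiratory factor 1 (NRF1), a regulator of many nuclear genes for mitochondrial proteins. It reads the same on both strands.
Mrpl49: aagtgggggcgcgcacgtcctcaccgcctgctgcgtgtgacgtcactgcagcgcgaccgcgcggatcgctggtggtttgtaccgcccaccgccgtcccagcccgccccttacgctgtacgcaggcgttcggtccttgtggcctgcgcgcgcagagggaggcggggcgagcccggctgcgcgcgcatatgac
Mrpl45: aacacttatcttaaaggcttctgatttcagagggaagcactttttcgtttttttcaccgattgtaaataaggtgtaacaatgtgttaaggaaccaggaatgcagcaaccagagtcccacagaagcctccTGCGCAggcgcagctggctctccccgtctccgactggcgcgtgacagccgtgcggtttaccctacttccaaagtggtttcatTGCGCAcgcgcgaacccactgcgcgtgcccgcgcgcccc
Mrpl45 holds the letters at 2 places and Mrpl49 at none in these stretches, although both genes fell. Of the large-subunit genes among the 10, only Mrpl45 held the letters in a search that ran 50 bases past the start.

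Mrpl18 comes from the family that binds the smallest ribosomal RNA of bacteria and sits in the central protuberance. It was at 36.3, 29.2 and 44.3 CPM in WT and at 12.2, 19.7 and 17.0 CPM in Acss2-KO libraries (log2 fold change -1.12, SE 0.22, limma adjusted p = 0.0062). Mrpl50, specific to mitochondria, was at 56.1, 52.3 and 76.1 CPM in WT and at 23.9, 32.4 and 30.7 CPM in Acss2-KO libraries (log2 fold change -1.05, SE 0.20, limma adjusted p = 0.0054). In both genes the lowest WT library stood clear of the highest Acss2-KO library. Mrpl28 had a smaller difference with little spread within a genotype: 38.1, 38.1 and 42.5 CPM in WT against 22.3, 25.1 and 23.6 CPM in Acss2-KO libraries (log2 fold change -0.72, SE 0.15, limma adjusted p = 0.0076).

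The stalk that recruits translation factors, a separate arm from that of Mrpl1, showed unequal values. Mrpl10, its base, was at 40.2, 45.3 and 40.8 CPM in WT and at 22.0, 31.1 and 27.3 CPM in Acss2-KO libraries (log2 fold change -0.64, SE 0.17, limma adjusted p = 0.021). That call was lost without replicate 1 or 2 of WT and without replicate 1 or 3 of Acss2-KO (limma adjusted p between 0.055 and 0.077). Mrpl12, the stalk protein that also binds the mitochondrial RNA polymerase, was at 79.3, 76.1 and 117 CPM in WT and at 79.3, 75.6 and 76.6 CPM in Acss2-KO libraries. Apart from WT replicate 3 its libraries lay within 4 CPM of each other, and the log2 fold change was -0.20 (SE 0.20, limma adjusted p = 0.44). Mrpl11, the remaining stalk gene, had overlapping libraries and a log2 fold change of -0.16.

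By place in the large subunit, 4 of 8 exit tunnel genes were lower (Mrpl22, Mrpl39, Mrpl45 and Mrpl47), 2 of 8 in the central protuberance (Mrpl18 and Mrpl48), 1 of 3 in the stalk and 0 of 4 near the peptidyl transferase centre. The last group, Mrpl2, Mrpl3, Mrpl4 and Mrpl16, had log2 fold changes from -0.43 to -0.20, and Mrpl2 came closest to the threshold with a limma adjusted p of 0.052. The central protuberance's share of 25% is close to the 23.1% of all genes tested. These groups are small and no test compared them. The other lower genes of the subunit were Mrpl19, Mrpl34, Mrpl36 and Mrpl42, whose calls, with those of Mrpl22, Mrpl47 and Mrpl48, were each lost without Acss2-KO replicate 1 (limma adjusted p between 0.065 and 0.14), without Acss2-KO replicate 3 (0.095 to 0.11) and under each of the 4 other scalings. Leaving out a WT library also ended the call of 6 of these 7 genes for replicate 1 (all but Mrpl22, limma adjusted p up to 0.085), 6 for replicate 2 (all but Mrpl47, up to 0.10) and 6 for replicate 3 (all but Mrpl19, up to 0.13), and leaving out Acss2-KO replicate 2 ended that of Mrpl48 (0.073). Mrpl48 is uncertain in a further way, since its processed pseudogene Mrpl48-ps is listed at 1.16 to 2.95 CPM and the handling of multiply matching reads was not given in the sources used here. Mrpl20 had the largest p of the subunit: 38.9, 38.3 and 69.6 CPM in WT against 46.2, 45.3 and 49.2 CPM in Acss2-KO libraries, a log2 fold change of -0.00 (SE 0.24, limma adjusted p = 0.99). Its Acss2-KO values lay between the low and the high WT libraries, and its sign turned with the scaling.

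In the small subunit Mrps22 and Mrps25, both specific to mitochondria, fell most. Mrps22, a gene mutated in human mitochondrial disease, was at 17.5, 17.8 and 27.5 CPM in WT and at 6.15, 11.2 and 7.31 CPM in Acss2-KO libraries (log2 fold change -1.26, SE 0.25, limma adjusted p = 0.0066). Mrps25 was at 9.38, 9.71 and 11.4 CPM in WT and at 3.36, 4.17 and 3.68 CPM in Acss2-KO libraries (log2 fold change -1.24, SE 0.18, limma adjusted p = 0.0018). Its Acss2-KO mean, 3.74 CPM, was under the 5 CPM minimum, which Mrps25 reached through its WT libraries. Mrps22 spread more within each genotype than Mrps25, whose libraries formed tight groups. By the deposited positions 32.9% of the Mrps25 gene is shared with Nr2c2, whose levels were 12.2 to 13.6 CPM in WT and 11.4 to 16.1 CPM in Acss2-KO libraries.

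The platform of the small subunit, which holds the messenger RNA near the exit side, had 3 lower genes of 4. That is 75%, against 23.1% of all genes tested, in a small group that no test compared with others. Mrps6 was at 8.88, 6.92 and 8.11 CPM in WT and at 3.25, 3.32 and 3.76 CPM in Acss2-KO libraries (log2 fold change -1.01, SE 0.18, limma adjusted p = 0.0042). The Acss2-KO mean of Mrps6, 3.44 CPM, was under the 5 CPM minimum, which the gene reached through its WT libraries. The Acss2-KO libraries of Mrps6 were nearly equal and all below the WT libraries, and its long gene region shares 54.0% of its length with Slc5a3, listed at 1.24 to 3.71 CPM. Mrps11 was at 11.1, 11.6 and 13.5 CPM in WT and at 5.62, 8.17 and 5.82 CPM in Acss2-KO libraries, a log2 fold change of -0.81 (SE 0.19, limma adjusted p = 0.012), and missed the threshold without Acss2-KO replicate 3 (0.057). Mrps21 changed by -0.80 (SE 0.22, limma adjusted p = 0.022) and missed it without WT replicate 3 (0.075) and without replicate 1 (0.063) or 3 (0.068) of Acss2-KO. The fourth platform gene is Mrps18c, described with its paralogs.

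Mrps12 forms part of the decoding centre and belongs to the family in which bacterial streptomycin resistance arises. It was at 35.3, 33.6 and 32.7 CPM in WT and at 17.4, 26.9 and 20.4 CPM in Acss2-KO libraries, with the WT libraries close together and Acss2-KO replicate 2 nearest to them. The log2 fold change was -0.65 (SE 0.19, limma adjusted p = 0.026), and of the single libraries only Acss2-KO replicate 2 could be left out without losing the call (limma adjusted p between 0.053 and 0.094 without any other). Mrps5, beside it at the messenger RNA entry, had a log2 fold change of -0.55 (limma adjusted p = 0.056), which passed once Acss2-KO replicate 2 was left out (0.0079). Mrps16 (-0.64), Mrps14 (-0.60), Mrps15 (-0.51) and Mrps7 (-0.48), the last a head protein mutated in human disease, were also lower, with limma adjusted p-values between 0.030 and 0.045. Each of these 4 calls was lost without WT replicate 1 (limma adjusted p between 0.058 and 0.12), without Acss2-KO replicate 1 (0.084 to 0.13), without Acss2-KO replicate 3 (0.090 to 0.11) and under the 4 other scalings. WT replicate 2 ended 3 of them when left out (all but Mrps16), WT replicate 3 ended 3 (all but Mrps15) and Acss2-KO replicate 2 ended that of Mrps7 (0.054).

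Mrps18b and Mrps2 ran the other way. Mrps18b (chromosome 17, 35910379 to 35916389) was at 19.3, 16.9 and 14.9 CPM in WT and at 39.4, 24.9 and 36.0 CPM in Acss2-KO libraries. Its lowest Acss2-KO library, replicate 2, was still above its highest WT library. The log2 fold change was 0.91 (SE 0.21, limma adjusted p = 0.010), and without Acss2-KO replicate 3 the limma adjusted p was 0.0501. An antisense gene, Gm16279, overlaps 30.6% of it and is listed at 2.20 CPM or less. Mrps2 (chromosome 2, 28468066 to 28471178), a protein at the junction of head and body, was at 44.3, 43.1 and 32.2 CPM in WT and at 57.7, 56.1 and 58.9 CPM in Acss2-KO libraries (log2 fold change 0.53, SE 0.17, limma adjusted p = 0.041). The Acss2-KO libraries of Mrps2 were nearly equal while WT replicate 3 was low, and the call was lost when any single library was left out (limma adjusted p between 0.052 and 0.13). Mrps26 followed with 0.38 (limma adjusted p = 0.083) and passed under the 4 other scalings (0.033 to 0.040).

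The 3 mammalian paralogs of bacterial protein S18 therefore had different values. Mrps18b is a small-subunit protein, Mrps18c takes the place of S18 on the platform, and Mrps18a is built into the large subunit despite its name. Mrps18c was at 14, 11.8 and 23.4 CPM in WT and at 10.3, 10.6 and 11.8 CPM in Acss2-KO libraries, where the highest Acss2-KO library met the lowest WT library (log2 fold change -0.50, SE 0.24, limma adjusted p = 0.13). Mrps18a was at 26.9, 28.2 and 31.1 CPM in WT and at 26.7, 24.4 and 24.6 CPM in Acss2-KO libraries, a slight separation that did not pass (log2 fold change -0.18, SE 0.15, limma adjusted p = 0.37). Only Mrps18b of the 3 passed the threshold, and the difference between the paralogs' fold changes was not tested.

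**Figure D2:**
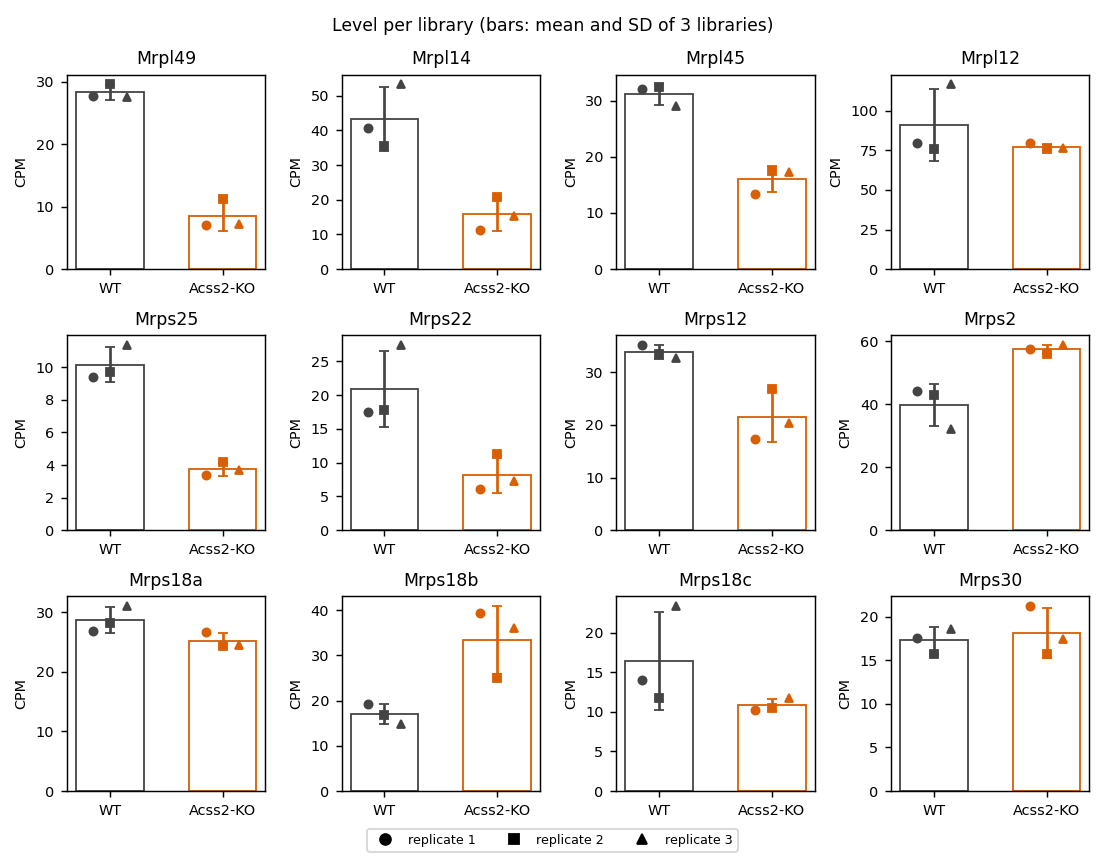
Level in CPM of 12 of these genes in each library, with bars for the mean and SD of 3 WT (grey) and 3 Acss2-KO (orange) libraries and a marker shape for the replicate number. Mrpl49, Mrpl45 and Mrps25 show wide gaps between the genotypes, Mrps2 and Mrps18b are higher in Acss2-KO, and Mrpl12 and Mrps30 overlap.

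The promoters of Mrps22 and Mrps18b are shown as those of the small-subunit genes with the largest decrease and the largest increase. By limma adjusted p, Mrps25 (0.0018) and Mrps6 (0.0042) came before Mrps22 (0.0066). They are the 250 bases before the RefSeq starts, chr9:98601680-98601929 for Mrps22 and chr17:35916441-35916690 for Mrps18b, both on the minus strand of GRCm38.p6. Capitals mark the NRF1 letters or, on either strand, CCGGAAG, the core of the motif bound by ETS factors such as GABP.
Mrps22: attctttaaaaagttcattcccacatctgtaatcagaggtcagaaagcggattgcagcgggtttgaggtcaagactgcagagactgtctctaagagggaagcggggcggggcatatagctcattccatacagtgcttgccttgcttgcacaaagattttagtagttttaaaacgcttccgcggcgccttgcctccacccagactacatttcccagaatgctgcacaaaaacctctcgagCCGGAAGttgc
Mrps18b: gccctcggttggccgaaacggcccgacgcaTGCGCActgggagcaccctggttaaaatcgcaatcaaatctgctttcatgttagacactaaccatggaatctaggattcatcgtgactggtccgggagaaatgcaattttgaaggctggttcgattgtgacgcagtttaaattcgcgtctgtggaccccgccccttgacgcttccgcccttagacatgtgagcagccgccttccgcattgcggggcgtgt
Mrps22 holds the ETS motif close to its start, and Mrps18b holds the NRF1 letters near the far end of its stretch. The wider search window, which runs 50 bases past the start, also held the ETS letters for Mrps18b. In that window Mrps6 held the NRF1 letters, and Mrps25 held neither the NRF1 nor the ETS letters.

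Some symbols do not match the subunit. Mrps30 is a large-subunit protein, and its levels of 17.5, 15.7 and 18.6 CPM in WT and 21.3, 15.7 and 17.4 CPM in Acss2-KO libraries overlapped (log2 fold change 0.06, SE 0.17, limma adjusted p = 0.82). Mrps36 is a subunit of the oxoglutarate dehydrogenase complex rather than of the ribosome. It was the 1 gene below the 5 CPM minimum, at 2.95, 7.36 and 4.47 CPM in WT and 4.17, 1.40 and 4.59 CPM in Acss2-KO libraries, and was not tested. Placing the genes by their known position in the ribosome, and adding the 5 ribosomal proteins with other symbols, gave 17 lower and 0 higher in the large subunit and 10 lower and 2 higher in the small subunit. Of all genes tested 23.1% were lower and 13.4% higher. Ict1, described below, passed neither threshold and was not among the 5.

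Of those 5 proteins, Gadd45gip1, a large-subunit protein at the tunnel exit, fell from 15.6, 14.6 and 18.8 CPM to 8.28, 10.6 and 8.28 CPM (log2 fold change -0.78, SE 0.18, limma adjusted p = 0.011). The small-subunit proteins Dap3 (-0.29), Chchd1 (-0.47), Aurkaip1 (-0.36) and Ptcd3 (0.07) did not pass, with limma adjusted p-values from 0.17 to 0.77. Ict1, the ribosome-bound peptidyl-tRNA hydrolase whose newer symbol is Mrpl58, was at 21.1, 22.8 and 31.3 CPM in WT and 18.1, 20.3 and 20.3 CPM in Acss2-KO libraries (log2 fold change -0.33, limma adjusted p = 0.19). Mrps17 had the largest p in the small subunit, with 39.7, 40.5 and 39.4 CPM in WT against 39.4, 39.9 and 42.8 CPM in Acss2-KO libraries (log2 fold change 0.03, limma adjusted p = 0.89). Its genotypes overlapped.

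Lower genes occurred in both families by descent. Among genes with a bacterial counterpart 18 of 48 were lower (37.5%) and 2 higher (4.17%), with a median log2 fold change of -0.40. Among those specific to mitochondria 8 of 26 were lower (30.8%) and 0 higher, with a median of -0.32. Of all genes tested 23.1% were lower and 13.4% higher, and no test compared the families. Both higher genes were of the shared family and in the small subunit, but Mrps2 lost its call when any single library was left out.

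The members also differed in level. Per kilobase of the longest coding transcript, a rough scale for comparison between genes, the WT mean ran from 2.37 CPM per kb (Mrpl19) to 88.7 CPM per kb (Mrpl52) over the 46 large-subunit genes with a known length. In the small subunit it ran from 1.67 (Mrps25) to 58.5 CPM per kb (Mrps21) over 28 genes. The lengths used were 5000 bases for Mrpl19, 412 for Mrpl52, 6073 for Mrps25 and 488 for Mrps21. Whether liver uses these transcripts was not tested. The medians were 25.6 CPM per kb in WT and 18.2 in Acss2-KO for the large subunit, and 18.6 and 14 CPM per kb for the small subunit. Mrpl14 went from rank 3 in WT (67.0 CPM per kb) to rank 26 in Acss2-KO (24.4 CPM per kb), whereas Mrpl52 was first in both. Summed over the genes of a subunit, large-subunit transcripts were at 1495, 1450 and 1876 CPM in WT and at 1153, 1301 and 1252 CPM in Acss2-KO libraries, or 76.9% of WT. Small-subunit transcripts were at 671, 652 and 782 CPM and at 580, 591 and 601 CPM, or 84.2% of WT. The small-subunit sum follows the symbols and so includes Mrps36, Mrps18a and Mrps30. Neither sum overlapped between the genotypes in CPM, but the sums were not compared under the other scalings. Over all genes tested, the median deviation from the gene's WT mean on the log2 scale was 0.02 in WT replicate 2 and -0.14 in Acss2-KO replicate 2.

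WT replicate 3 stood above the other WT libraries in these genes. It was the highest WT library for 40 of 47 large-subunit and 19 of 27 small-subunit genes, and the median deviation from the gene's WT mean was 0.24 (large) and 0.11 (small) on the log2 scale there, against -0.14 to -0.07 in the other WT libraries. Over all genes tested the same library had a median deviation of -0.08. In the Acss2-KO libraries the medians were -0.46, -0.36 and -0.37 for the large and -0.47, -0.27 and -0.35 for the small subunit, so every Acss2-KO library lay below every WT library in both. Cytosolic ribosomal protein transcripts were also high in WT replicate 3 (summed level 14886 CPM, against 9597 and 8634 CPM in the other WT libraries). Without WT replicate 3 the medians were -0.26 for the large and -0.23 for the small subunit, beside -0.14 for all genes tested, and 16 of the 74 genes were lower (21.6%, against 21.4% of all genes).

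**Figure D3:**
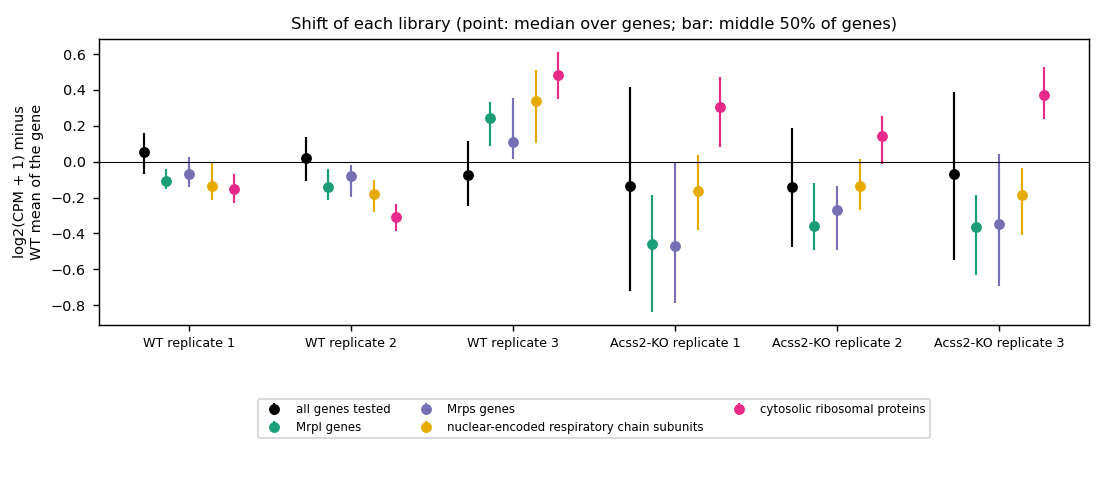
Median deviation of each library from the gene's WT mean, on log2(CPM + 1), for all genes tested and 4 gene groups, with bars for the middle 50% of genes. The Mrpl and Mrps points of the 3 Acss2-KO libraries lie between -0.47 and -0.27, while WT replicate 3 is high for the Mrpl, Mrps, respiratory chain and cytosolic ribosomal protein genes.

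The other genes of mitochondrial translation were read from lists chosen with earlier results of these data known. Their counts stand beside 23.1% lower and 13.4% higher of all genes tested. Translation factors had 7 of 15 lower (46.7%) and 0 higher (median log2 fold change -0.62), among them the initiation factor Mtif3 (21.3, 23.3 and 27.1 CPM in WT against 11.4, 12.6 and 10.3 CPM in Acss2-KO libraries, log2 fold change -1.0, limma adjusted p = 0.0034). Taco1, the activator of the translation of cytochrome oxidase subunit I, was at 19.2, 21.4 and 16.7 CPM in WT and at 3.29, 10.9 and 5.50 CPM in Acss2-KO libraries (log2 fold change -1.53, limma adjusted p = 0.0094). Mitochondrial aminoacyl-tRNA synthetases had 8 of 16 lower (50%) and 1 higher (median -0.62), among them Hars2, the histidine enzyme (-0.94, limma adjusted p = 0.0034). In both lists the share lower was above that of the ribosomal proteins, a difference that was not tested.

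Factors that assemble the ribosome or modify its RNA moved both ways, with 8 of 23 lower (34.8%) and 3 higher (13.0%; median -0.27). Mterf4, which guides the methyltransferase Nsun4 to the large subunit, was at 16.7, 16.4 and 18.8 CPM in WT and 6.45, 8.94 and 8.94 CPM in Acss2-KO libraries (log2 fold change -1.02, limma adjusted p = 0.0039). The assembly factor Mpv17l2 rose from 10.2, 10.9 and 11.5 CPM to 29.9, 20.5 and 21.7 CPM (log2 fold change 1.06, limma adjusted p = 0.0037). Neither gene overlapped between the genotypes. Genes of mitochondrial DNA transcription and maintenance had 2 of 8 lower (Polg2, -0.77, and Tefm, -0.62) and 0 higher, a share of 25% lower that is close to that of all genes. The regulators of nuclear genes for mitochondrial proteins had 1 of 13 lower and 6 higher, with Pprc1, a coactivator of the PGC-1 family, at 20.1, 14.3 and 11.2 CPM in WT and 69.6, 32.2 and 60.5 CPM in Acss2-KO libraries (log2 fold change 1.73, limma adjusted p = 0.0042). The lower gene was Nfe2l1 (-1.19, limma adjusted p = 0.0043), a stress factor that shares the abbreviation NRF1 but is another protein.

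Genes of the respiratory chain and of the cytosolic ribosome had few calls. Nuclear-encoded respiratory chain subunits, whose partners the mitochondrial ribosome makes, had 3 of 73 lower and 0 higher with a median log2 fold change of -0.19. Cytosolic ribosomal proteins had 1 of 76 lower and 3 higher with a median of 0.26. The RNAs of the mitochondrial ribosome itself, looked at after their values were seen, had unequal values, a difference that was not tested. The RNA of the small subunit (mt-Rnr1) was at 440, 367 and 549 CPM in WT and at 112, 103 and 125 CPM in Acss2-KO libraries (log2 fold change -1.97, SE 0.21, limma adjusted p = 0.00060), whereas that of the large subunit (mt-Rnr2) was at 685, 440 and 826 CPM and at 630, 446 and 653 CPM (log2 fold change -0.15, limma adjusted p = 0.70). Of 13 mitochondrially encoded messenger RNAs 0 were lower and 4 higher (30.8%, against 13.4% of all genes), and in 10 every Acss2-KO library was above every WT library. The WT libraries stood far apart in several of them, with mt-Co2, a subunit of cytochrome oxidase, at 776, 9.58 and 2876 CPM in WT and 5997, 5634 and 5480 CPM in Acss2-KO libraries. WT replicate 2 was also far below the other WT libraries for mt-Co3 (11.6 CPM) and mt-Atp6 (10.1 CPM). How ribosomal RNA was depleted or selected against in these libraries was not tested.

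**Figure D4:**
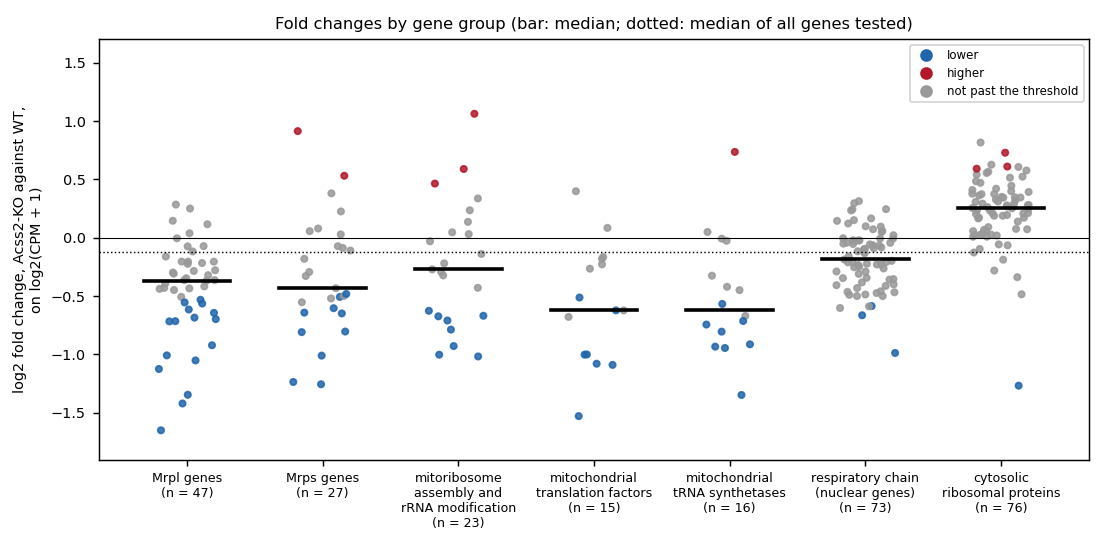
Log2 fold change (Acss2-KO against WT, on log2(CPM + 1)) of the genes tested in 7 groups, 1 point per gene, with a bar at each group's median and a dotted line at the median of all genes tested. The medians are -0.37 and -0.43 for the Mrpl and Mrps genes, -0.62 for translation factors and for tRNA synthetases, -0.19 for respiratory chain genes and 0.26 for cytosolic ribosomal proteins.

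Promoters of these genes were searched over 250 bases before to 50 after the RefSeq start (GRCm38.p6), which held 66 of the 75 genes. The NRF1 letters TGCGCA were present in 11 of 41 tested large-subunit genes (26.8%) and 8 of 24 small-subunit genes (33.3%), against 16.7% of 7029 tested protein-coding genes. The ETS core was present in 13 (31.7%) and 10 (41.7%), against 21.6% of all. The core of the motif of YY1 (ATGGCGG, both strands), another factor of many such promoters, was present in 6 genes of each subunit (14.6% and 25%), against 10.6% of all. Between lower genes and those past neither threshold the shares were 28% and 28.9% for NRF1, 32% and 36.8% for ETS and 12% and 21.1% for YY1. For none of the 3 was the share larger among the lower genes. The 3 sets of letters do not contain each other. A match is a string of letters and not a measured binding site.

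Many of these genes start back to back with a neighbour. A divergent start within 1000 bp was found for 26 of 65 genes (40.0%), against 20.5% of all genes with a window. In 16 cases the neighbour was also tested: 1 pair fell together, 1 pair moved in opposite directions, in 6 only the ribosomal gene passed, in 4 only the neighbour and in 4 neither, with Mrps11 and Mrpl46, which neighbour each other, counted from both sides. Of all genes tested 36.5% passed in either direction, and whether neighbours changed together was not tested. The pair that fell together was Mrps12 and Sars2, the mitochondrial seryl-tRNA synthetase, whose starts lie 147 bp apart. Sars2 was at 11.6, 8.57 and 7.94 CPM in WT and at 3.92, 6.73 and 4.35 CPM in Acss2-KO libraries (log2 fold change -0.80, SE 0.23, limma adjusted p = 0.026). The opposite pair was Mrps18b and Ppp1r10, a phosphatase regulatory subunit, 756 bp apart, where Ppp1r10 was at 37.3, 15.6 and 11.3 CPM in WT and at 4.53, 4.82 and 3.94 CPM in Acss2-KO libraries (log2 fold change -1.87, SE 0.37, limma adjusted p = 0.0074).

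One pair joins both subunits: Mrps11 and Mrpl46 start 42 bp apart on chromosome 7. Mrpl46, a central protuberance protein, was at 17.3, 19.2 and 22.9 CPM in WT and at 14, 14.9 and 13.8 CPM in Acss2-KO libraries, below WT in every library but past the threshold in none of the alternatives that tested it (log2 fold change -0.44, SE 0.17, limma adjusted p = 0.066). In the deposited positions the genes share 413 bp, so their reads may be split between them. The whole stretch between the RefSeq starts of each pair is shown because it lies before both genes, on the strand of the Mrps gene: chr7:28741822-28741967 (minus strand) for Mrps12 and Sars2 and chr7:78783090-78783130 (plus strand) for Mrps11 and Mrpl46, both GRCm38.p6.
Mrps12: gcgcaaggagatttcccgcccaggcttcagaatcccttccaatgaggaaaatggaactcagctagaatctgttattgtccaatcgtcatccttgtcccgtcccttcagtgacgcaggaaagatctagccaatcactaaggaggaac
Mrps11: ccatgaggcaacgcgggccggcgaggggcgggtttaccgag
None of the NRF1, ETS or YY1 letters lie in either stretch, although the wider search window held the ETS letters for Mrps12 and the YY1 letters for Mrps11.

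The genes were spread over the genome, with at most 9 on 1 chromosome (chromosome 11). On chromosome 2, which holds Acss2, the nearest were Mrps26 and Mrps5, 25 and 27.9 Mb from it, and Mrps2 lay 127 Mb away. A gene of the deposited table overlapped 20 of the 75 genes by position, 10 of them lower and 1 higher. Of the 74 genes tested 35.1% were lower and 2.70% higher, and of all genes tested 23.1% and 13.4%. Lower calls were thus more frequent among the overlapped genes, a difference that was not tested. Reads of the overlapped genes cannot be assigned by strand from the sources used here.

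The authors' deposited table gave fewer calls. At the authors' adjusted p under 0.05 it held 5 lower large-subunit genes (Mrpl1, Mrpl14, Mrpl18, Mrpl49 and Mrpl50), 3 lower small-subunit genes (Mrps22, Mrps25 and Mrps6) and 1 higher (Mrps18b), where 14.7% of all genes in the authors' deposited table were lower and 12.5% higher. All 9 were called here with the same sign. Of the 28 genes called here, 11 kept the call without each library in turn: Mrpl1, Mrpl14, Mrpl18, Mrpl28, Mrpl39, Mrpl45, Mrpl49, Mrpl50, Mrps6, Mrps22 and Mrps25. All but Mrpl28 also kept it under each of the other settings of the limma test that tested them. Mrpl28 missed it when WT replicate 2 and Acss2-KO replicate 1 were both left out (limma adjusted p = 0.057). At the minimum of 20 CPM, Mrpl1, Mrpl49, Mrps6, Mrps22 and Mrps25 were not tested. Mrps6 and Mrps25 reached the 5 CPM minimum through their WT libraries.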

How the data were processed

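Liver RNA of fasted mice, 6 libraries (3 WT, 3 Acss2-KO), was analysed from 1 deposited table. Its per-library values are log2 CPM as deposited, with 2 decimals and values under 1 CPM listed at 0, read as 1 CPM. The scale was read from the values, and whole reads could not be recovered, so a count model planned for counts gave way to the limma branch of the design. The authors' own log2 fold changes and adjusted p-values are in the same table, made with a tool not given in the sources used here. Bowtie 0.12.2 and mm8 are named, with no role, in the submitters' processing notes. The deposited coordinates follow GRCm38 (gene starts a median of 8 bp apart over 11625 genes matched by symbol). Multiply matching reads and strand are not described in the sources used here.

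Genes averaging 5 CPM or more were tested with limma 3.58.1 on log2(CPM + 1) (R 4.3.3, statmod 1.5.0, robust with a mean-variance trend), without covariates, with Benjamini-Hochberg adjustment over all 9355 genes and a threshold of 0.05. Fold changes on this scale understate the change of low genes. Depth came from the spacing of the lowest values in each library. Transcript lengths are those of the longest coding transcript in GENCODE M1, and tables and figures used Python 3.11.15, pandas 2.3.3, numpy 2.4.6 and matplotlib 3.10.9. The procedure was tested on simulated data. The members and all lists were chosen with earlier results of these data known, and lists were described by counts and medians without a set test. Named were, per subunit, the 6 lower and 3 higher genes with the smallest p, the gene with the largest p, genes under the filter, a set fixed by role, all 5 ribosomal proteins with other symbols and the 2 leading genes of each other list, of which 1 is not reported here. Genes that only complete a count were named after their values were seen. Alternatives were pseudocounts of 0.5 and 5, 4 other scalings, no filter or 20 CPM, a threshold of 0.01, an ordinary empirical Bayes fit, each library left out, WT replicate 2 and Acss2-KO replicate 1 left out together, the replicate number as a block, subunits by place and the authors' calls. Mrpl53 and Mrps23 were not analysed here.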

Additional observations from a re-analysis of the deposited data

How the results depend on the processing

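The medians of both subunits stayed negative under every alternative, and the counts of called genes moved. Beside 16 lower genes in the large and 10 lower and 2 higher in the small subunit, median-of-ratios, upper-quartile, trimmed-mean and quantile scaling each gave 9 and 6 lower. A minimum of 20 CPM gave 9 and 4 lower, and of all genes 1112 lower and 741 higher in place of 2161 and 1252. A threshold of 0.01 gave 8 and 3 lower with 0 higher, and 991 lower and 505 higher of all genes. Dropping both WT replicate 2 and Acss2-KO replicate 1 gave 7 and 4 lower with 1 higher, and 1291 and 702 of all genes. The authors' calls gave 5 and 3 lower with 1 higher, and 1818 lower and 1541 higher of all 12366 genes. Leaving out single libraries gave 8 to 17 lower in the large subunit, 3 to 11 lower and 0 to 1 higher in the small subunit, and 1192 to 2381 lower and 525 to 1616 higher of all genes. The small-subunit median of -0.43 was -0.32 with trimmed-mean scaling, -0.29 with quantile scaling, -0.24 at 20 CPM, -0.32 in the authors' table and -0.31 with the median of all genes taken off, an alternative chosen after seeing the data. It ran from -0.47 to -0.23 with single libraries left out, the weakest without WT replicate 3. The signs of 3 genes near 0 turned. Mrpl20 was at 0.10 with median-of-ratios, 0.077 with upper-quartile, 0.11 with trimmed-mean and 0.083 with quantile scaling and at 0.09 in the authors' table. With single libraries left out it ran from -0.15 to 0.27, Mrps30 from -0.058 to 0.15 and Mrps17 from -0.0065 to 0.052. Mrps30 was at -0.12 when replicate 2 of WT and replicate 1 of Acss2-KO were both dropped. With the replicate number as a block, 16 large-subunit genes were lower and 0 higher, and 8 small-subunit genes lower and 1 higher. Same-numbered libraries did not deviate together (correlations of deviations -0.10, -0.14 and 0.09), so the numbers give no pairing and the block is shown only here. The cause of these movements was not tested, other than that a higher minimum tests fewer genes and a left-out library leaves fewer samples. With 3 libraries a group and a threshold adjusted over 9355 genes, genes past neither threshold may still differ.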
